A study of Mus musculus with 4 samples.

Results

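Oxidative phosphorylation is carried out by 5 enzyme complexes of the mitochondrial inner membrane, and the genes described here encode the subunits of these complexes that are made from nuclear DNA. The set was every protein-coding row whose GRCm38 symbol begins with Nduf, Uqcr, Atp5 or Cox4 to Cox8, together with Sdha, Sdhb, Sdhc, Sdhd and Cyc1. It held 93 of the 36464 gene identifiers in the files, of which 19150 were protein-coding; 11 further symbols that match the pattern are not protein-coding and were left out. By complex, 36 genes belong to complex I, 8 are its Ndufaf assembly factors, 4 belong to complex II, 9 to complex III, 12 to the ubiquitous part of complex IV, 7 are tissue-restricted or hypoxia-related isoforms of complex IV, and 17 belong to complex V.

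RNA was sequenced from CD8+ T cells enriched out of percutaneous tumour grafts in male wild-type C57BL/6 mice. One group was injected intraperitoneally with IgG, as the control antibody, and the other with an antibody against SIGLEC15, a sialic acid-binding receptor of the immunoglobulin superfamily studied as a brake on T cell responses. Injections ran for 2 weeks and grafts were collected on day 19. Each group had 6 mice, the pellets of 3 of which were mixed for each library, so that each group has 2 libraries and the whole comparison 4. All mice carried the graft, and the cells were enriched rather than pure, as the markers below show. The spread between libraries is therefore the spread between pools, not between mice, and p-values refer to that spread alone.

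Electrons from NADH enter the chain at complex I and those from succinate at complex II. Ubiquinone carries them to complex III, cytochrome c carries them on to complex IV, and complex IV passes them to oxygen. Complexes I, III and IV pump protons across the inner membrane, and complex V, the ATP synthase, lets them flow back while it makes ATP. Complex II is made wholly from nuclear genes, whereas each of the other complexes combines nuclear subunits with subunits encoded by mitochondrial DNA. CD8+ T cells use oxidative phosphorylation throughout their life, and memory and persistently stimulated cells are known for differing in mitochondrial mass and respiration.

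Nuclear respiratory factor 1 (NRF1), the GA-binding protein (GABPA) and YY1 are transcription factors known for binding promoters of nuclear genes of the respiratory chain. RefSeq promoter windows of GRCm38.p6, which run from 250 bases before to 50 bases after a gene's start, were matched to 76 of the 93 genes. On either strand, the NRF1 letters GCGCATGCG stood in 10 of the 76 windows (13.2%, against 2.61% of 17492 protein-coding genes), the YY1 letters AAGATGGCG in 8 (10.5% against 2.14%) and the GABPA letters CCGGAAGT in 5 (6.58% against 5.69%). At least 1 of the 3 motifs stood in 22 windows (28.9% against 9.84%), and Uqcr11 was the one member whose window held 2 kinds. These are matches of letters in a window and not evidence of binding. By complex, YY1 letters stood in 5 of 32 complex I, 2 of 15 complex V, 0 of 5 complex III and 0 of 10 complex IV windows. NRF1 letters stood in 2 of 32, 3 of 15, 2 of 5 and 1 of 10 of them. At least 1 motif stood in 3 of the 5 complex III windows and in 0 of the 3 complex II windows. The windows per complex are too few to say that the motifs were spread unevenly. The following 200 bases, from 170 before to 30 after the start and written 5′ to 3′ on the gene's strand, show one member for each motif and the member with 2 kinds. Capitals mark the motif.
Atp5k (complex V subunit e, chr5:108434370-108434569, minus strand, NRF1 letters): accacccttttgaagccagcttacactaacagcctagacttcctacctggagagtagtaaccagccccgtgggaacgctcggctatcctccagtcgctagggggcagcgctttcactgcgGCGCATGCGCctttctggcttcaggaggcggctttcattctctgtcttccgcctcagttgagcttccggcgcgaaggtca
Atp5h (complex V subunit d, chr11:115419890-115420089, minus strand, GABPA letters on the opposite strand): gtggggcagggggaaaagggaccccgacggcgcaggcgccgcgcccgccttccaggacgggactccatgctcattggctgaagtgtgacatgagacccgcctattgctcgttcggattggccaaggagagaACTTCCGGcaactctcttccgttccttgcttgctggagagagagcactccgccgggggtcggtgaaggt
Ndufaf8 (complex I assembly factor, chr11:120098764-120098963, plus strand, YY1 letters): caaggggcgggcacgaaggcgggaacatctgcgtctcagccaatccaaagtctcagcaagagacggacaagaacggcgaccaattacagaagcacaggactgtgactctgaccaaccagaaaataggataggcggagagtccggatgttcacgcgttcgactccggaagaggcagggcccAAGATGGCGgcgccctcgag
Uqcr11 (complex III subunit, chr10:80406792-80406991, minus strand, GABPA letters and then NRF1 letters on the opposite strand): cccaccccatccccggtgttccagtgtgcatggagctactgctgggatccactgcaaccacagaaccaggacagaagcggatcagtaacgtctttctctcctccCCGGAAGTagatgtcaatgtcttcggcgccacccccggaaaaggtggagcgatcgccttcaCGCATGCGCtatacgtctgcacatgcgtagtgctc

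Values are given in RPKM, the reads of a gene scaled to the length of its annotated exons in kilobases and to the total of reads counted in that library, and in each series of 4 values the order is IgG 1, IgG 2, anti-SIGLEC15 1 and anti-SIGLEC15 2. The files held 14854801 to 16026197 counted reads per library and 24309 to 26722 genes above 0. IgG 1 stood apart in its cell markers. The 19 T cell identity genes, none of them at 0 in all libraries, summed to 1483 RPKM in IgG 1 and to 4533 to 5060 RPKM in the other 3 libraries, and the 7 CD8 lineage genes to 888.2 RPKM against 2165 to 2444. Cd8a was at 114.9 RPKM in IgG 1 against 290.2 to 351.4. The 14 hepatocyte and hepatoma genes summed to 5981 RPKM in IgG 1 and to 1229, 2621 and 1263 RPKM in the others. The 10 macrophage genes summed to 1563 RPKM against 273 to 575.9, and the 8 neutrophil genes to 843.9 RPKM against 68.11 to 368.6. Not every gene of these lists moved with its sum. Among those with at least 1 RPKM in 2 libraries, IgG 1 was highest for 8 of 13 hepatocyte genes. It was highest for 3 of 5 macrophage and 6 of 6 neutrophil genes. The 5 red cell genes summed to 691.3, 1929, 112.9 and 19.85 RPKM. In such mixed samples fewer cells of a type and less RNA per cell cannot be told apart, and the part of these cells in the values below was not tested. Siglec15 itself was at 0 in all 4 libraries; the antibody targets the protein, so this checks no label. The difference between groups is therefore given below with and without IgG 1.

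No difference between the groups was detectable for any nuclear oxidative phosphorylation gene, and the median fold change of the set lay near 0. Of the 93 genes, 87 reached 1 RPKM in at least 2 libraries and were tested with limma on log2(RPKM + 1), among 12484 genes in all. The number past an adjusted p of 0.05 was 0, as it was for all genes (0.0%), and the number with an unadjusted p under 0.05 was 0, against 146 of all genes (1.17%). With limma-voom on the recovered reads the number of genes called was also 0, and 185 of 19556 genes had an unadjusted p under 0.05. Both anti-SIGLEC15 libraries lay above both IgG libraries for 11 members, 12.6% of those tested beside 12.1% of all genes, and below them for 9 members, 10.3% beside 6.02% of all genes. The share above was thus near that of all genes. The log2 fold change, anti-SIGLEC15 minus IgG, was positive for 44 members and negative for 43, with a median of 0.002 beside 0.017 for all genes. Without IgG 1, 20 members were above and 24 below, beside 26.0% and 25.9% of all genes, the median was 0.009, and 0 members passed an adjusted p of 0.05 while 125 genes did. Without IgG 2, 2129 genes passed and again 0 members, and 33 members were above and 33 below, beside 45.4% and 36.2% of all genes. Without anti-SIGLEC15 1 the counts were 13 above and 44 below, beside 19.2% and 37.9%, and without anti-SIGLEC15 2 they were 37 and 10, beside 36.8% and 8.5%. With 3 libraries the order of fewer values has to hold, and the lone library of a group is assumed to vary like the others.

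The members varied little among the 4 libraries. The ratio of the highest to the lowest library had a median of 1.27 over the 87 members, beside 1.76 over all genes tested, and it was under 1.5 for 69 members (79.3%) beside 33.9% of all genes. Since low genes carry more counting error, the ratio was also taken over genes with a mean of at least 10 RPKM. There it had a median of 1.24 over 71 members and 1.55 over 3791 protein-coding genes, and it was under 1.5 for 88.7% and 46.5%. The steadiest of those members was Uqcrfs1, the Rieske iron-sulfur protein of complex III, at 95.91, 96.58, 99.14 and 95.67 RPKM, a ratio of 1.036. The fold change was within 0.2 on the log2 scale for 68 members (78.2%) beside 49.5% of all genes, and beyond 0.5 for 1 member, Atp5s. Uqcrfs1 and Atp5s are named after their values were seen.

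**Figure D1:**
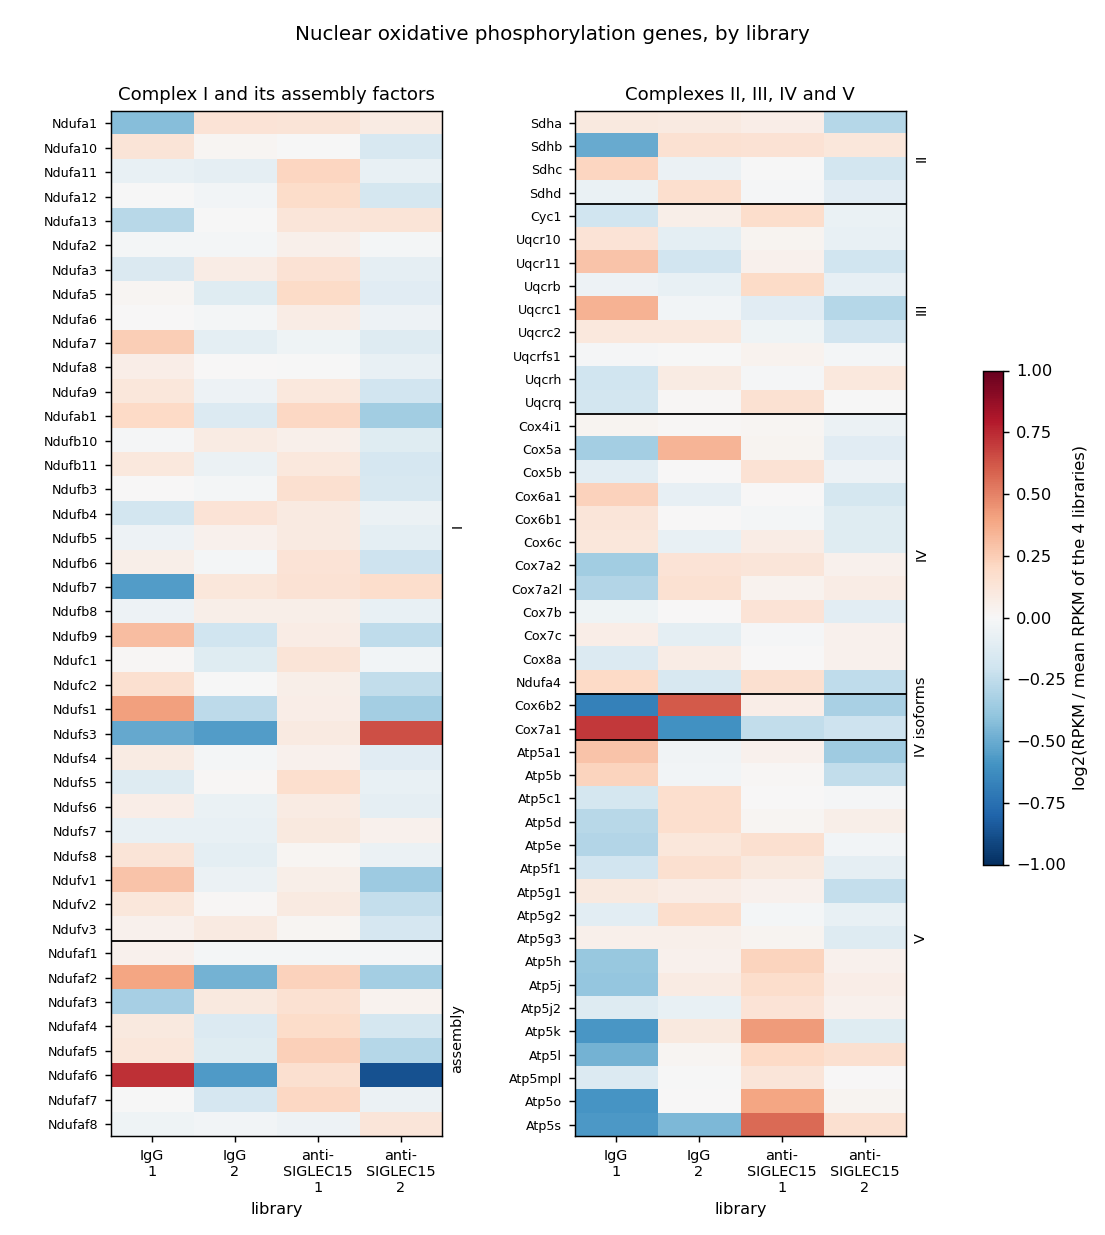
Level of 86 of the 87 tested genes in each library, as log2 of the RPKM over the gene's mean of the 4 libraries (red above, blue below the mean), with complex I and its assembly factors at the left and the other complexes at the right. Most rows are pale, the strongest colours fall on Ndufaf6, Ndufs3, Cox6b2, Cox7a1 and Atp5s, and the anti-SIGLEC15 2 column is blue for most of complex I.

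The share of reads taken by the whole set was steady once mitochondrial transcripts were set aside. The 93 genes took 1.015%, 1.033%, 1.060% and 0.957% of all counted reads, in which the anti-SIGLEC15 libraries were both the highest and the lowest. The 13 subunits encoded by mitochondrial DNA took 10.90%, 11.82%, 8.39% and 16.04%, so that the reads of these 13 genes exceeded those of the nuclear set by 10.7, 11.4, 7.92 and 16.8 times. Of the reads outside the mitochondrial genome, the nuclear set took 1.152%, 1.187%, 1.164% and 1.172%. The 2 groups overlapped in that share, and so they did in the summed level of the members, at 6545, 6711, 6905 and 6331 RPKM.

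**Figure D2:**
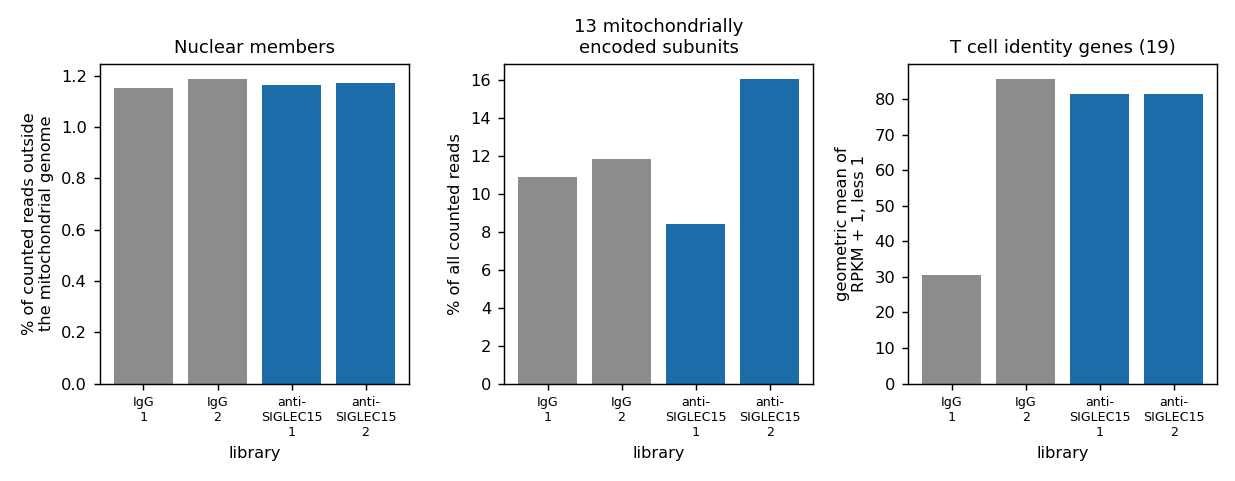
Left, the 93 nuclear genes as a percentage of counted reads outside the mitochondrial genome; middle, the 13 mitochondrially encoded subunits as a percentage of all counted reads; right, the geometric mean of 19 T cell identity genes in RPKM, with grey bars for the IgG and blue bars for the anti-SIGLEC15 libraries and 1 library per bar. The nuclear share lies between 1.152% and 1.187% in the 4 libraries, while the mitochondrial share runs from 8.39% to 16.04% and the T cell level of IgG 1 is 30.6 against 81.3 to 85.6.

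The library in which a gene was highest or lowest was counted for the members and for all genes tested. Of the 87 members, 44 (50.6%) had their lowest RPKM in anti-SIGLEC15 2, the library with the highest mitochondrial share, beside 36.7% of all genes tested, and 30 (34.5%) in IgG 1, beside 43.7%. In anti-SIGLEC15 1, the library with the lowest mitochondrial share, 34 (39.1%) had their highest, beside 32.1%. On a scale that counts only reads outside the mitochondrial genome, anti-SIGLEC15 2 was lowest for 21 members (24.1%, beside 26.6% of all genes) and IgG 1 for 38 (43.7%, beside 46.2%). On that scale 19 members lay above in both anti-SIGLEC15 libraries and 11 below, beside 14.5% and 7.21% of all genes.

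The levels of the members differed far more between genes than between libraries. RPKM divides by the length of all annotated exons of a gene, which for 28 members is at least 2 times the length of the principal coding transcript. Levels are therefore compared between genes on both lengths. The longest principal coding transcript was taken, so a gene for which it is long can stand low on both. Of the 93 members, 21 had a mean of at least 100 RPKM and 13 a mean under 5 RPKM, and 10 stayed under 5 on the coding length. Summed RPKM was divided among the complexes in nearly the same way in every library. Complex IV held 37.0% to 38.3% of it, complex I 25.8% to 27.1%, complex V 19.6% to 21.6%, complex III 11.2% to 11.7%, complex II 2.5% to 2.7% and the assembly factors 0.9% to 1.1%. On the coding length complex IV held 33.2% to 34.6%, complex V 26.5% to 28.8%, complex I 24.5% to 25.5%, complex III 10.1% to 10.5% and complex II 1.9% to 2.2%, so that complexes I and V changed places. These are levels of RNA and say nothing of how much of each complex was assembled.

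**Figure D3:**
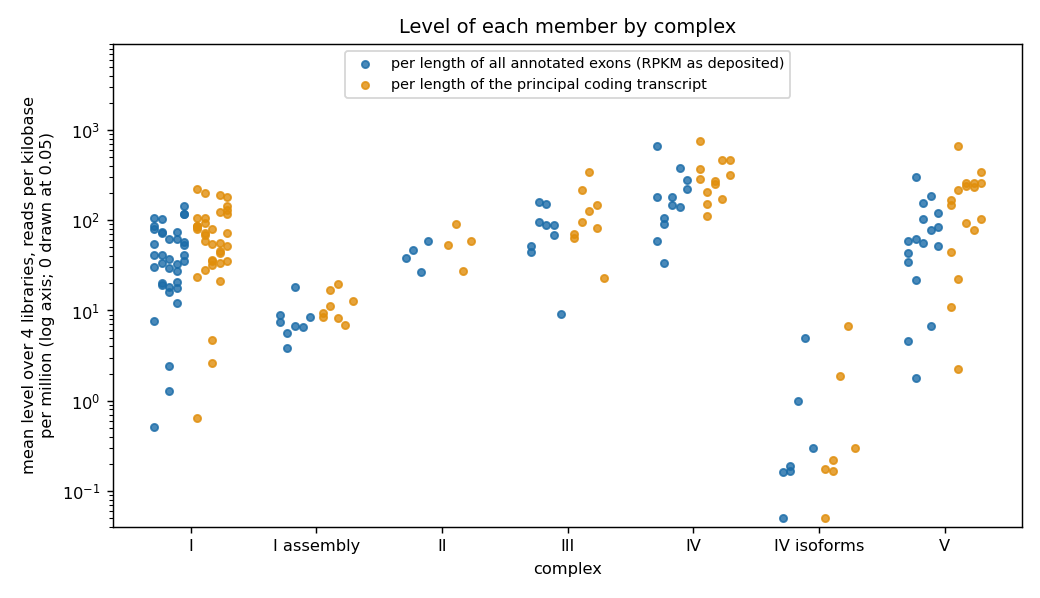
Mean level of each of the 93 genes over the 4 libraries on a log axis, in RPKM, per length of all annotated exons (blue, as deposited) and per length of the principal coding transcript (orange), by complex. Complex IV holds the highest gene, Cox8a, and its isoforms the lowest, Cox8b, whose 0 is drawn at 0.05.

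Complex I takes electrons from NADH through a core of subunits that bind flavin and iron-sulfur clusters, around which the accessory subunits are built. Of the 36 genes, 35 were tested, with a median log2 fold change of -0.01. In both anti-SIGLEC15 libraries 5 lay above (14.3%) and 3 below (8.57%), beside 12.1% and 6.02% of all genes. The 7 core genes had a median of -0.14 with 2 above and 0 below, and the 28 tested accessory genes a median of 0.00 with 3 above and 3 below. Of the core genes, 5 of 7 (71.4%) had their highest value in IgG 1, beside 34.0% of all genes. Without IgG 1 the core median was 0.08, with 3 above and 0 below, where 26.0% and 25.9% of all genes lay above and below. Counts over so few core genes are not read as a result.

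Ndufv1, which carries the flavin that accepts electrons from NADH (chromosome 19, 4007384 to 4012806), was at 33.59, 26.38, 28.66 and 21.37 RPKM. Its highest library was IgG 1 and its lowest anti-SIGLEC15 2, and the groups overlapped. The log2 fold change was -0.26 ± 0.30 (SE, n = 2 libraries per group), with an adjusted p of 1.0 in limma, the value that every member had. Without IgG 1 it was -0.09.

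Ndufs1, the largest iron-sulfur subunit (chromosome 1, 63143596 to 63176833), was at 10.22, 6.43, 8.05 and 6.08 RPKM. The groups again overlapped, and the log2 fold change of -0.19 ± 0.34 (SE) turned to 0.11 without IgG 1. In RPKM, Ndufs1 and Ndufv1 thus shared the same pattern, highest in IgG 1 and lowest in anti-SIGLEC15 2. On the scale that counts only reads outside the mitochondrial genome, Ndufs1 was lowest in IgG 2 (7.383 against 7.446 in anti-SIGLEC15 2). Ndufv1 kept the pattern on that scale. Ndufs7 and Ndufs3 were the core genes whose groups did not overlap. Ndufs7, an iron-sulfur subunit, was at 32.11, 32.01, 36.12 and 34.68 RPKM. Ndufs3 was at 0.89, 0.86, 1.35 and 1.98 RPKM, but 84.1% of its coding transcript is at least 95% identical to transcripts of 2 other genes, so that its low count is uncertain.

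Among the accessory genes, Ndufb7 and Ndufa13 had the smallest p of those with a positive fold change. Ndufb7, a subunit of the membrane arm facing the intermembrane space (chromosome 8, 83566671 to 83571626), was at 20.60, 32.76, 33.60 and 34.30 RPKM. IgG 1 was low and the other 3 libraries were close together, so that the log2 fold change of 0.37 ± 0.32 (SE) was 0.05 without IgG 1. Ndufa13, also known as GRIM-19 (chromosome 8, 69894180 to 69902558), was at 95.87, 115.8, 126.9 and 127.0 RPKM, a log2 fold change of 0.27 ± 0.25 (SE), or 0.13 without IgG 1. For Ndufa13 both IgG libraries lay below both anti-SIGLEC15 libraries, which stood together.

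The remaining accessory genes whose groups did not overlap differed little. Ndufa11 was above, at 15.14, 14.99, 18.49 and 15.17 RPKM. Ndufa8, Ndufa10 and Ndufv3 were below. Ndufa8, for example, was at 89.94, 86.10, 85.68 and 81.55 RPKM, a log2 fold change of -0.07. On the scale that counts only reads outside the mitochondrial genome, Ndufa8 was at 102.1, 98.93, 94.07 and 99.91, so that its groups overlapped. Ndufa10 and Ndufv3 stayed below on that scale. Ndufb11, the gene of complex I with the highest mean RPKM, was at 155.7, 139.0, 156.1 and 129.4 RPKM; on the coding length Ndufb7 was higher, with a mean of 220.1 against 145.0. Ndufb2, with the lowest mean on both lengths, was at 0.29, 0.48, 0.70 and 0.55 RPKM and was not tested. On the coding length its mean was 0.65 RPKM, beside 2.64 for Ndufs3. The transcript taken for Ndufb2 has 4371 bases, and its place on that length may depend on this choice.

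The 8 assembly factors, which help to build complex I and are not part of the finished enzyme, had a median log2 fold change of 0.01, and none of them separated the groups. Ndufaf8, the one with the highest mean and the one whose window holds the YY1 letters shown above, was at 17.73, 17.93, 17.72 and 19.86 RPKM. Ndufaf2, the one with the lowest mean RPKM, was at 5.03, 2.75, 4.49 and 3.03 RPKM, but on the coding length its mean was 16.8 and the lowest was that of Ndufaf4, at 6.98. Ndufaf6 varied 3.04 times among libraries, at 12.43, 5.06, 8.36 and 4.09 RPKM, the widest ratio of the 8, and it is named after its values were seen. One library of each group was high and the other low.

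Complex II, succinate dehydrogenase, is also an enzyme of the tricarboxylic acid cycle. Its 4 genes had a median log2 fold change of -0.14, with 0 above and 1 below, beside 12.1% and 6.02% of all genes. It was the one complex with a median below 0 under all 15 settings, the main one included (-0.78 to -0.04). These are not 15 separate checks. The other filters, protein-coding genes only and the replicate block leave the fold changes of these genes as they were, at a median of -0.14. T cell identity scaling lowered the median of all genes to -0.54. Relative to the median of all genes, complex II was lower in all 15 settings (-0.243 to -0.127). So were complex IV (-0.114 to -0.005) and the whole set (-0.086 to -0.001). Sdha, which carries the flavin and oxidises succinate (chromosome 13, 74322254 to 74350280), was at 40.42, 40.31, 39.56 and 31.03 RPKM. Only anti-SIGLEC15 2 stood away from the others, the log2 fold change was -0.20 ± 0.27 (SE), and it was -0.20 without IgG 1, -0.37 without anti-SIGLEC15 1 and -0.03 without anti-SIGLEC15 2. Sdhb, the iron-sulfur subunit (chromosome 4, 140961203 to 140979193), was at 32.58, 51.62, 51.07 and 50.03 RPKM, a log2 fold change of 0.29 ± 0.32 (SE), or -0.03 without IgG 1. IgG 1 was thus the low library for Sdhb and lay beside IgG 2 for Sdha. The membrane anchors Sdhc and Sdhd had the lowest and the highest mean RPKM of the complex, although on the coding length Sdhb was the highest, at 90.8 against 58.7 for Sdhd. Sdhc was at 31.33, 25.96, 26.86 and 23.78 RPKM and Sdhd at 56.11, 65.93, 58.33 and 54.30 RPKM.

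Complex III passes electrons from ubiquinol to cytochrome c. Its 9 genes had a median log2 fold change of 0.02, with 0 above and 2 below, beside 12.1% and 6.02% of all genes. Those 2 were Uqcrc1 and Uqcrc2, the paired core proteins that face the matrix. Uqcrc1 (chromosome 9, 108936633 to 108949623), which had the smallest p of all members with a negative fold change and the lowest mean of the complex, was at 11.62, 8.95, 8.46 and 7.49 RPKM. Its group means were 10.3 ± 1.89 and 7.97 ± 0.69 RPKM (SD, n = 2 each), and the log2 fold change of -0.32 ± 0.28 (SE) was -0.15 without IgG 1. Uqcrc2 was at 55.99, 56.05, 50.65 and 45.56 RPKM.

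Cyc1, the cytochrome c1 that hands electrons to cytochrome c (chromosome 15, 76343523 to 76346260), was at 39.11, 46.84, 50.72 and 42.82 RPKM. The groups overlapped, and the log2 fold change was 0.12 ± 0.27 (SE), or -0.01 without IgG 1. Uqcr10, the gene of complex III with the highest mean RPKM, was at 176.2, 150.1, 163.3 and 152.7 RPKM; on the coding length Uqcrh was higher, with a mean of 339.9 against 216.1. In every gene of the complex other than Uqcrc1 and Uqcrc2, Cyc1 and Uqcrfs1 included, the groups thus overlapped.

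Complex IV, cytochrome c oxidase, reduces oxygen; its catalytic centres lie in mitochondrially encoded subunits, and the nuclear subunits surround them. The 12 ubiquitous genes had a median log2 fold change of -0.01, with 0 above and 1 below, beside 12.1% and 6.02% of all genes. Cox4i1, which takes part in regulation by adenine nucleotides (chromosome 8, 120668222 to 120674207), was at 185.5, 183, 184.6 and 174.1 RPKM, a log2 fold change of -0.04 ± 0.23 (SE), or -0.03 without IgG 1. The 4 libraries lay close together, as for most of the complex. Cox5a, an early-assembled partner of Cox4i1 (chromosome 9, 57521274 to 57532426), spread more, at 26.88, 42.93, 34.51 and 31.43 RPKM. Here the 2 IgG libraries were the lowest and the highest, and the log2 fold change of -0.04 ± 0.32 (SE) was -0.37 without IgG 1.

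Cox8a had the highest mean of all members, at 610.0, 707.1, 672.1 and 692.3 RPKM, and the groups overlapped. Cox6b1, the member below in both anti-SIGLEC15 libraries, was at 303.7, 280.9, 276.1 and 257.4 RPKM. Cox7a2l, a factor in joining complexes III and IV, was at 149.1, 203.1, 187.6 and 192.8 RPKM.

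Of the 7 isoforms of complex IV, 5 were too low to test, and Cox6b2 and Cox7a1 were tested. Cox8b, the heart and muscle counterpart of Cox8a, had 0 reads in each library, which allows up to 0.52 to 0.56 RPKM at a floor of 3 reads; the floor covers counting error only. Cox4i2, known as the hypoxia-inducible counterpart of Cox4i1, had 2 reads in each of the 4 libraries, against 4009 to 4607 for Cox4i1. Cox6a2, a muscle isoform, had 0, 1, 6 and 0 reads, and Cox7b2 had 3, 3, 2 and 2. Ndufa4l2, known as a target of hypoxia signalling, had 3, 6, 4 and 0 reads. At such counts no difference between groups was detectable. Cox6b2, a testis isoform, had 11, 26, 18 and 13 reads.

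Cox7a1, the muscle counterpart of Cox7a2, was the one isoform with a mean near 5 RPKM, at 8.05, 3.25, 4.17 and 4.28 RPKM from 69, 27, 35 and 34 reads. IgG 1 was the high library. Cox7a1 made up 8.77%, 2.70%, 3.48% and 3.75% of the summed RPKM of the pair, and Cox7a2 was lowest in IgG 1, at 83.68 RPKM against 109.7 to 117.3. The 7 muscle marker genes summed to 0.22 to 0.70 RPKM, with Myh1 and Mb at 0 in all libraries. These sums rest on 7 to 19 reads a library, too few to order the libraries.

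Complex V couples proton flow through its membrane part, Fo, to ATP synthesis in the F1 head. Its 17 genes had a median log2 fold change of 0.13, with 6 above (35.3%) and 2 below (11.8%), beside 12.1% and 6.02% of all genes. The 6 genes of F1 and its connecting protein Atp5o had a median of 0.05 with 1 above and 0 below, and the 10 genes of Fo and the stalk a median of 0.16 with 4 above and 2 below. The sixth gene above was Atp5s, an associated factor, at 1.19, 1.30, 2.62 and 1.98 RPKM. IgG 1 was the lowest library for 13 of the 17 genes (76.5%), beside 43.7% of all genes. Without IgG 1 the median of complex V was -0.05 with 6 above and 6 below, and that of Fo and the stalk 0.05 with 4 above and 4 below, where 26.0% and 25.9% of all genes lay above and below. The median of Fo and the stalk exceeded that of all genes by 0.04 to 0.17 in all 15 settings, and the smallest excess came without IgG 1. These are not 15 separate checks. The other filters, protein-coding genes only and the replicate block leave the fold changes of these genes as they were, at a median of 0.16. Scaling to T cell identity genes, which moves the median of all genes to -0.54, put that of Fo and the stalk at -0.49. The median of Fo and the stalk itself was above 0 in 14 of the 15 settings. That of F1 exceeded the median of all genes in 11 of the 15.

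Fold changes were positive for 4 of the 6 F1 genes and for 7 of the 10 Fo and stalk genes. They were positive for 0 of these 16 under T cell identity scaling, which moved the median of all genes from 0.017 to -0.537. The 2 F1 genes with negative fold changes were Atp5b and Atp5a1. Atp5b, the beta subunit that holds the catalytic sites (chromosome 10, 128083273 to 128090391), was at 351.3, 296.1, 303.8 and 254 RPKM, a log2 fold change of -0.22 ± 0.24 (SE), or -0.09 without IgG 1. Atp5a1, the alpha subunit, was at 42.45, 34.01, 35.87 and 27.21 RPKM, a log2 fold change of -0.27 ± 0.29 (SE), or -0.12 without IgG 1. In RPKM both were highest in IgG 1 and lowest in anti-SIGLEC15 2, as Ndufs1, Ndufv1 and other members were, and in both the groups overlapped.

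Atp5h, subunit d of the peripheral stalk (chromosome 11, 115415689 to 115419962) and the gene whose window holds the GABPA letters above, was at 93.58, 125.2, 142.3 and 125.4 RPKM. The groups just failed to overlap, by 125.2 against 125.4 RPKM, and the log2 fold change of 0.30 ± 0.27 (SE) was 0.09 without IgG 1. Atp5k, subunit e at the dimer interface (chromosome 5, 108433244 to 108434448) and the gene whose window holds the NRF1 letters, was at 37.68, 60.28, 75.39 and 51.69 RPKM. Its groups overlapped, and the log2 fold change of 0.38 ± 0.36 (SE) was 0.05 without IgG 1. Atp5l, subunit g (chromosome 9, 44912557 to 44920742), had the smallest p of the members with a mean of at least 5 RPKM, at 4.80, 6.75, 7.65 and 7.45 RPKM, a log2 fold change of 0.35 ± 0.29 (SE), or 0.14 without IgG 1. For Atp5l and Atp5h, as for Sdhb and Ndufb7, IgG 1 was the low library.

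The annotated exons of Atp5l span 6443 bases against 544 for its coding transcript, and its mean was 6.67 RPKM on the first length and 78.9 on the second. Of the coding transcripts of Atp5l, Atp5h and Atp5o, 86.8%, 80.5% and 92.0% are at least 95% identical to those of other genes. At least 50% of the coding transcript was near-identical elsewhere for 13 of all 93 members. This held for 4 of the 11 genes above in both anti-SIGLEC15 libraries (Ndufs3, Atp5h, Atp5l and Atp5o) and for 0 of the 9 below. Atp5k (56.6%) and Ndufb11 (62.9%), whose groups overlapped, were also among the 13. No label says how reads shared by such copies were counted, so the values of these genes are uncertain.

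The c-ring of Fo, through which protons pass, is built from 1 protein encoded by Atp5g1, Atp5g2 and Atp5g3, which differ in the targeting sequence that is removed on import. Atp5g2 made up 48.4%, 53.5%, 50.5% and 52.6% of their summed RPKM, Atp5g3 40.1%, 36.3%, 38.7% and 37.7%, and Atp5g1 11.5%, 10.2%, 10.8% and 9.7%. On the coding length Atp5g2 made up 45.5%, 50.5%, 47.5% and 49.4%, Atp5g3 49.6%, 45.1%, 47.9% and 46.5%, and Atp5g1 4.9%, 4.4%, 4.6% and 4.1%. Atp5g1 was the lowest of the 3 in each library on both lengths, and the order of Atp5g2 and Atp5g3 depended on the length. The coding transcript taken for Atp5g1 has 4715 bases, against 731 for Atp5g2 and 723 for Atp5g3, and the small share of Atp5g1 depends on that choice. In reads it was also the lowest in each library, at 1817, 1725, 1712 and 1334. Atp5g1, at 23.08, 22.64, 22.20 and 18.28 RPKM, and Atp5g3, at 80.36, 80.37, 79.19 and 71.18 RPKM, were the complex V genes that lay below in both anti-SIGLEC15 libraries. Of the coding transcript of Atp5g2, 88.2% is near-identical to 2 other genes.

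**Figure D4:**
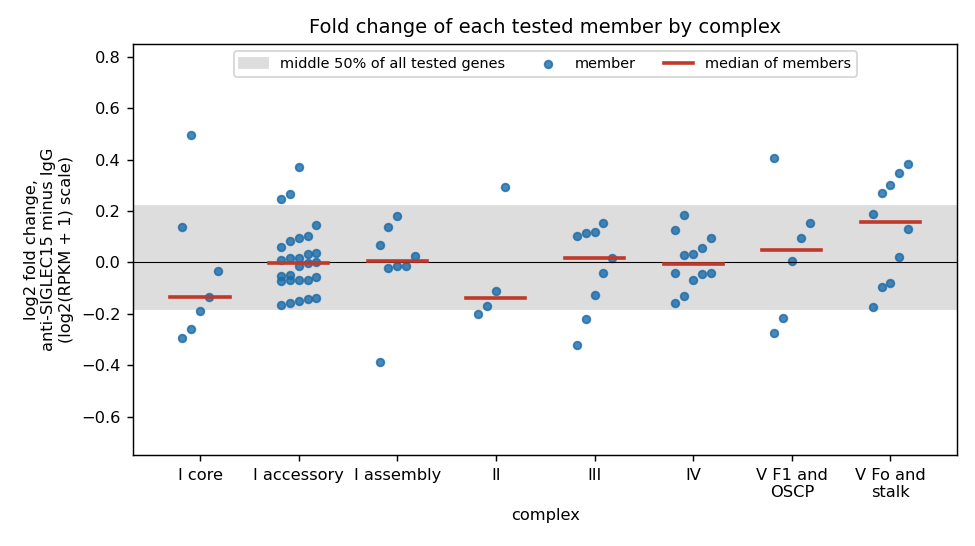
Log2 fold change, anti-SIGLEC15 minus IgG on the log2(RPKM + 1) scale, of each tested gene (blue points) by complex, with the median of each class (red line) and the middle 50% of all tested genes (grey band, -0.18 to 0.22); Atp5s (0.55) and the 2 tested isoforms Cox6b2 and Cox7a1 are not drawn. The class medians lie inside the band, from -0.14 in complex II and the complex I core to 0.16 in Fo and the stalk, and 0 genes passed an adjusted p of 0.05.

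The 13 mitochondrially encoded subunits, the partners of these proteins in complexes I, III, IV and V, had a median log2 fold change of 0.04, with 0 above and 0 below. mt-Co1, the catalytic subunit of complex IV, was at 44540, 49280, 33980 and 67950 RPKM, so that the 2 anti-SIGLEC15 libraries were the lowest and the highest. mt-Nd1, mt-Cytb and mt-Atp6 had the same 2 extremes. In RPKM, whose total includes mitochondrial reads, Cox4i1 did not share these extremes and differed by 1.07 times among the libraries. On the scale that counts only reads outside the mitochondrial genome it was at 210.5, 210.3, 202.7 and 213.3, with the same 2 extremes. Members highest in anti-SIGLEC15 2 numbered 5 in RPKM (5.7%, beside 11.8% of all genes). On the other scale they numbered 23 (26.4%, beside 20.4%).

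Genes that act beside the complexes showed 0 calls at an adjusted p of 0.05 in limma. Their counts are to be read beside the 12.1% of all genes above and the 6.02% below. A list of assembly factors other than the Ndufaf genes covered the other complexes and also held further factors of complex I. Of its 30 tested genes, 5 lay above in both anti-SIGLEC15 libraries and 0 below, with a median log2 fold change of 0.08. Of 11 tested genes of cytochrome c and ubiquinone synthesis, 1 lay above and 0 below, with a median of 0.02; Cycs, cytochrome c itself, was at 29.24, 30.28, 34.46 and 29.51 RPKM. Of 17 genes of the tricarboxylic acid cycle and pyruvate dehydrogenase, 1 lay above and 0 below, with a median of -0.12. Of 12 tested regulators of mitochondrial genes, 3 lay above and 0 below, with a median of 0.15. Ppargc1a, the coactivator known for driving mitochondrial biogenesis, was at 0.15, 0.07, 0.08 and 0.05 RPKM and was not tested.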

How the data were processed

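The deposited values, 1 column per library, carry no unit name. They were read as RPKM because the deposited value multiplied by the summed exon length in GENCODE M21 gave whole reads, within 0.02, for 98.92% to 98.97% of values under 1000 reads. The builds GRCm38 and mm10 are named in the submitters' processing notes; which aligner and counter were used is not given in the sources used here.

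Genes with at least 1 RPKM in 2 libraries were tested with limma 3.58.1 in R 4.3.3 (trended, robust variances) on log2(RPKM + 1), with Benjamini-Hochberg adjustment over 12484 genes; a fold change on this scale understates that of low genes. The code was tested on simulated data. With 2 libraries against 2, a permutation test of 1 gene cannot go below p = 0.333. Alternatives were other scalings, filters and pseudocounts, limma-voom on recovered reads, the replicate block and leaving out each library. Near-identical transcripts were sought with BLAST+ 2.17.0 (95% identity over 50 bases).

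The genes and lists were chosen with earlier results of these data known. Genes named with fold changes were the 5 of smallest p in each direction with a mean of at least 5 RPKM, plus 10 catalytic or defining subunits; the highest and lowest gene of each complex and the isoforms were named by value. Genes named beyond this, such as those whose groups did not overlap, were chosen after their values were seen. One gene that this rule names is not reported here.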

Additional observations from a re-analysis of the deposited data

How the results depend on the processing

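The number of members past an adjusted p of 0.05 was 0 in all 15 settings. The number of all genes called was 0 except without IgG 1 and IgG 2, and ranged from 0 to 2129 when 1 library was left out. Members above in both anti-SIGLEC15 libraries (11) numbered 7 with upper-quartile scaling, 19 with totals that leave out mitochondrially encoded genes, 0 with scaling to T cell identity genes, and 13 to 37 when 1 library was left out. Members below (9) numbered 15 with median-of-ratios scaling, 17 with upper-quartile scaling and 10 to 44 when 1 library was left out; fewer libraries have to be ordered there. The median log2 fold change of members (0.002) was -0.623 with T cell scaling, where that of all genes was -0.537, and without anti-SIGLEC15 2 that of all genes was 0.111. T cell scaling reversed Atp5l (-0.223), Ndufb7 (-0.260), Atp5h (-0.348), Ndufa13 (-0.382), Atp5k (-0.260), Sdhb (-0.345) and Cyc1 (-0.521). Leaving out 1 library gave -0.487 to 0.108 for Ndufs1, -0.03 to 0.618 for Sdhb, -0.007 to 0.247 for Cyc1, -0.081 to 0.003 for Cox4i1 and -0.372 to 0.284 for Cox5a. It gave 0.141 to 0.559 for Atp5l, 0.05 to 0.694 for Ndufb7, 0.092 to 0.509 for Atp5h, 0.132 to 0.402 for Ndufa13, 0.05 to 0.714 for Atp5k, -0.494 to -0.151 for Uqcrc1, -0.468 to -0.081 for Atp5a1, -0.343 to -0.086 for Atp5b, -0.461 to -0.053 for Ndufv1 and -0.369 to -0.028 for Sdha. The other settings changed no direction of these 15 genes. The fold changes of Ndufa8 and Atp5s under other settings are not given here.

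Libraries of the 2 groups share the numbers 1 and 2, which no label ties to a shared batch or day. Deviations of same-numbered libraries correlated at 0.33 over all genes tested and 0.405 over members. The replicate block cannot change the counts of members above (11) and below (9), which are taken from the same RPKM. With it 0 members were called in limma. The number of all genes with an unadjusted p under 0.05 in limma was 303 with the block and 146 without it. Members with a mean under 5 RPKM numbered 13, and 10 with the coding length; this length, used also for the shares of complexes and of the c-ring genes, is an alternative chosen after seeing the data.

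Depth limits the isoforms with few reads, for which no difference was detectable. IgG 1 differed from the other libraries in the summed level of T cell, hepatocyte, macrophage and neutrophil markers. The cause was not tested.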
